A study of Mus musculus with 8 samples.

Results

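The 10 genes followed in the mouse cardiac ventricle are known targets of the transcription factor p53, namely Phlda3, Cdkn1a, Mdm2, Ccng1, Bax, Bbc3, Trp53inp1, Sesn1, Zmat3 and Eda2r. They were found by symbol, and each of the 10 matched 1 of the 23100 loci in the gene table, alone at its symbol entry. The ventricles came from 8 mice aged 4.5 months. All carried loxP-flanked (fl/fl) alleles of Sox5 and Sox6, both SoxD-type transcription factor genes. The 4 double knockout (DKO) mice also carried Cre recombinase under the αMHC (aMHC) promoter, which is active in cardiomyocytes, and the 4 control (Ctrl) mice were negative for Cre. Cre and the loss of the targeted genes therefore cannot be told apart, and cells other than cardiomyocytes keep both genes in DKO. The title of the series names pressure overload, but no operation is given for these animals. All levels are FPKM, that is fragments scaled to transcript length and library size, with 1 value per genotype and no error per animal.

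p53 is a sequence-specific transcription factor that is stabilised by DNA damage and other stresses. It binds response elements built of a pair of 10-base motifs and raises genes that halt the cell cycle, promote cell death, limit growth signals and protect against oxidants. One target, Mdm2, encodes the ubiquitin ligase that marks p53 for destruction and so closes a feedback loop. Adult cardiomyocytes rarely divide, and p53 in the heart is best known for its part in cell death, metabolism and the response to overload and to DNA-damaging drugs.

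Sox6, the targeted gene with a test result, stood at 1.69 FPKM in DKO and 3.39 in Ctrl (q = 0.00158 in the authors' deposited table). Sox5 was at 0.497 and 0.369 FPKM without a test result, so it does not check the label. A gene is named as called where Cuffdiff tested it and its q was at most 0.05. Cardiomyocyte markers summed to 65030 FPKM in DKO and 77295 in Ctrl. Of these 12 markers none was called, 4 had an unadjusted p under 0.05 and 12 had a log2 ratio below 0, with a median of -0.20. Fibroblast markers summed to 833 and 637 FPKM, with 8 of 10 called higher, and macrophage markers to 422 and 273 FPKM, with 11 of 13 called higher. Endothelial markers summed to 419 and 445 FPKM with none of 9 called and 1 at an unadjusted p under 0.05. No marker in these 4 lists was at 0 in either genotype. Of 5 atrial markers, 1 was called higher (Nppa, a stress-responsive natriuretic peptide gene). Myl4 was tested and not called, at 3.58 FPKM in DKO and 3.69 in Ctrl (q = 0.976 in the authors' deposited table). Myl7, Sln and Bmp10 were at most 0.367 FPKM and not tested. Myl4, Myl7, Sln and Bmp10 were named after their values were seen.

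Among the p53 targets, Phlda3 and Eda2r were called higher in DKO ventricles and no member was called lower at the gene level. Phlda3, a repressor of Akt signaling, was 2.14-fold higher, and Eda2r, a receptor of the TNF receptor family, 1.54-fold higher. The classical targets did not pass the test, with Cdkn1a at 17.1 FPKM in DKO against 14.0 in Ctrl, Mdm2 at 28.0 against 28.1 and Bax at 19.8 against 17.7. Cuffdiff tested all 10 members, and 2 were called higher at a q of at most 0.05, where 4.30% of the 12133 tested genes were called higher. None was called lower, where 3.06% of all tested genes were. Past a fold of 1.3 in either direction lay the same 2 members, where 9.54% of all tested genes did. At an unadjusted p under 0.05, the count of lower members was 2. The members and all gene lists were chosen with earlier results of these data known. Their shares beside all tested genes, here and below, are therefore descriptions only.

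Before adjustment, 5 of the 10 members had a p under 0.05, against 16.5% of all tested genes. They went both ways: Phlda3, Eda2r and Cdkn1a were higher, and Sesn1 and Ccng1 were lower. The share of all tested genes at that unadjusted threshold was 8.78% for higher and 7.76% for lower genes. Of the members, 7 had a log2 ratio above 0 and 3 below, where 48.9% of all tested genes were above 0. The median log2 ratio of the members was 0.15, and that of all tested genes was -0.00420. The median absolute log2 ratio was 0.24 for the members and 0.11 for all tested genes. The 8 members that were not called lay between -0.27 and 0.29 on the log2 scale.

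The members spanned a wide range of levels, and their order by FPKM was the same in both genotypes. Ccng1 was by far the most abundant, followed by Sesn1, Mdm2, Bax, Cdkn1a, Phlda3, Trp53inp1, Zmat3, Bbc3 and Eda2r. Ccng1 exceeded 98.3% of all tested genes in mean FPKM, while Eda2r exceeded 9.26% of them. Without values per animal, it cannot be said which neighbours in this order differ beyond their spread.

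**Figure D1:**
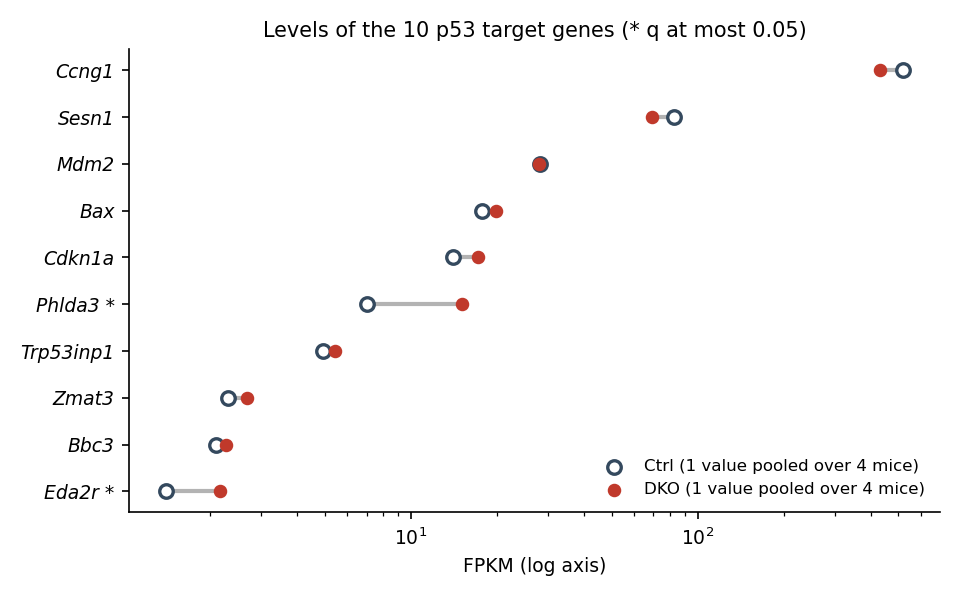
Levels of the 10 p53 target genes on a logarithmic FPKM axis, with an open circle for Ctrl and a filled circle for DKO, each pooled by the authors over 4 mice (no error bars can be drawn). The distance between the circles is largest for Phlda3 (7.00 to 15.0 FPKM) and Eda2r (1.40 to 2.16 FPKM), the genes marked with a star, and the circles of Mdm2 coincide.

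**Figure D2:**
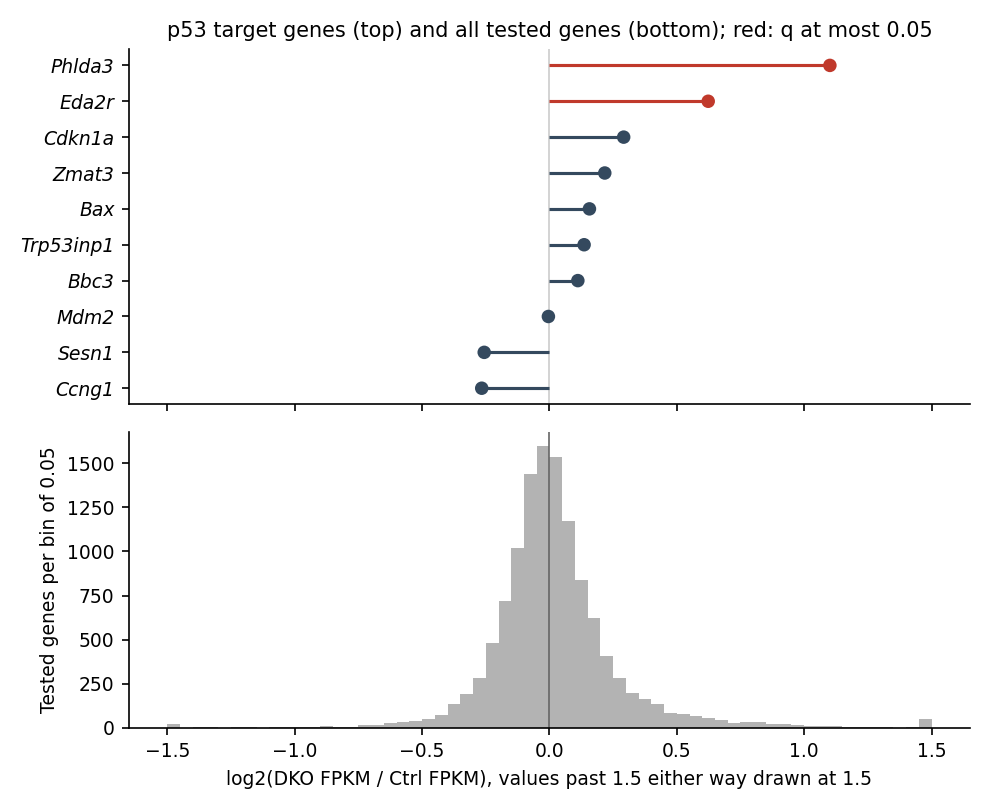
Top, log2 ratio of DKO over Ctrl FPKM for each member, in red where q is at most 0.05. Bottom, the number of tested genes (12133 in all) per bin of the same log2 axis. Phlda3 at 1.10 and Eda2r at 0.62 lie in the right tail, and the other 8 members lie between -0.27 and 0.29.

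Phlda3 encodes a small protein with a pleckstrin homology domain that competes with Akt for membrane lipids and so lowers Akt activity. It lies on chromosome 1 at 137662662 to 137665711 in mm9. Phlda3 stood at 15.0 FPKM in DKO and 7.00 in Ctrl, a log2 ratio of 1.10 (q = 0.00158 in the authors' deposited table). Of the 12133 tested genes, 0.948% had a larger log2 ratio in either direction, and Phlda3 stood at rank 81 from the highest. The table gives it 1 isoform of 1467 bases from 1 start site, so the start site (q = 0.00223 in the authors' deposited table) and isoform (q = 0.00312) values repeat that of the gene. The paralog Phlda1, which also encodes a pleckstrin homology protein, was 1.35-fold higher at 26.2 against 19.4 FPKM (q = 0.00290 in the authors' deposited table). Akt1, which encodes the kinase that Phlda3 restrains, stood at 85.7 FPKM in DKO and 101 in Ctrl (q = 0.112 in the authors' deposited table).

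Phlda3 is the member with the largest rise, so the 250 bases before its RefSeq start are shown (chr1:135765835-135766084 in GRCm38.p6, plus strand). A search for the p53 10-base motif by its consensus, which reads the same on both strands, found no exact match in this window, so no letters are in capitals.
Phlda3: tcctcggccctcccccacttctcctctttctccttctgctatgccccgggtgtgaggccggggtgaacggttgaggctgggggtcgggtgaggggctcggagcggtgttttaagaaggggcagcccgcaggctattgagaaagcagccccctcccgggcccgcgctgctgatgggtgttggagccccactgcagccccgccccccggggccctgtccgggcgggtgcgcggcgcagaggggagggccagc

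Eda2r encodes the receptor for the A2 form of ectodysplasin and signals to NF-κB. It lies on chromosome X at 94529180 to 94572548 in mm9. Eda2r stood at 2.16 FPKM in DKO and 1.40 in Ctrl, a log2 ratio of 0.62 (q = 0.0223 in the authors' deposited table), and 3.76% of all tested genes had a larger log2 ratio in either direction. The call was lost at a q under 0.01. With 1 FPKM added to both values the log2 ratio was 0.40.

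Eda2r was listed with 3 isoforms of 1 start site, none of them called. The isoform of 4744 bases stood at 1.08 FPKM in DKO and 0.915 in Ctrl (q = 0.875 in the authors' deposited table). The isoform of 2163 bases was at 0.701 and 0.483 FPKM, and that of 4789 bases at 0.378 and 0.00134 FPKM, both without a test result. The largest rise in FPKM was thus in the untested isoform of 4789 bases. All 3 were higher in DKO, and how the authors' model divided reads among such overlapping isoforms limits each single value. The start site group, which sums them, was called (q = 0.0305 in the authors' deposited table). The ligand gene Eda, chosen after its values were seen, was at 1.07 and 1.04 FPKM (q = 0.972 in the authors' deposited table). Of 7 tested genes of the ligand, receptor relatives and NF-κB arm, none was called, with Nfkb2 at 11.6 against 10.6 FPKM, Traf3 at 6.24 against 5.99 and Relb at 6.17 against 5.84. All 7 of these genes had an unadjusted p of at least 0.05.

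The window before the Eda2r start is printed as the other gene called at gene level (chrX:97377210-97377459 in GRCm38.p6, minus strand, 5′ to 3′ in the direction of the gene). It too held no exact match to the p53 motif.
Eda2r: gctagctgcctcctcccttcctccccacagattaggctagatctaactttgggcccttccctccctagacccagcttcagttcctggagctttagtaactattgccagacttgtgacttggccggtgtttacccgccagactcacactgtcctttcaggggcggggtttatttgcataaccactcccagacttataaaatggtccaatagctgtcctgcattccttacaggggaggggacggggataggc

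Cdkn1a and Ccng1 are the members that act on the cell cycle. Cdkn1a, which encodes the cyclin-dependent kinase inhibitor p21, lies on chromosome 17 at 29227931 to 29237667 in mm9. It stood at 17.1 FPKM in DKO and 14.0 in Ctrl, a log2 ratio of 0.29 that passed 0.05 only before adjustment (q = 0.130 in the authors' deposited table). Nearly all of its signal came from the downstream of its start sites, at 16.4 FPKM in DKO and 13 in Ctrl (q = 0.128 in the authors' deposited table). The upstream start was at 0.668 and 1.03 FPKM (q = 0.890 in the authors' deposited table), or 3.90% of the gene's FPKM in DKO and 7.39% in Ctrl. The shares of the start sites were not tested.

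The upstream Cdkn1a start is the one with p53 motifs close by. In the 250 bases before it (GRCm38.p6, plus strand) the search found 2 exact p53 motifs, and in the 250 bases before the downstream start none. The starts are at 29090979 and 29093769 on this strand, so the motifs also lie before the downstream start, outside its window. The stretches that hold a pair of motifs with at most 1 mismatch in 20 bases and a gap of up to 13 bases are shown, with the motifs in capitals, because the downstream window holds no such pair. They overlap by 1 motif. These lines, and those for Ccng1 and Bax, were chosen after the values were seen.
Cdkn1a chr17:29090906-29090937: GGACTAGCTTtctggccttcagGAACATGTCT
Cdkn1a chr17:29090928-29090947: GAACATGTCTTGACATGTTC

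Ccng1, the gene of cyclin G1, which recruits a phosphatase to Mdm2, lies on chromosome 11 at 40562054 to 40568788 in mm9. It stood at 431 FPKM in DKO and 518 in Ctrl, a log2 ratio of -0.27 (q = 0.0831 in the authors' deposited table). The table gives it 1 isoform, of 3487 bases. Its log2 ratio had the opposite sign to those of Phlda3, Eda2r and Cdkn1a, and it lay beside cardiomyocyte markers with a median log2 of -0.20. Fewer cells of a type and less RNA per cell cannot be told apart in these bulk samples, and the part of cell makeup in the values of the members was not tested. The window before the Ccng1 start held 1 pair of motifs with 1 mismatch. It is printed with its GRCm38.p6 position (minus strand, 5′ to 3′ in the direction of the gene).
Ccng1 chr11:40755462-40755481: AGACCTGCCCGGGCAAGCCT

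Among other cell cycle genes, 2 of 16 tested cyclins, kinases and inhibitors were called higher and none lower. Of all tested genes, 4.30% were called higher and 3.06% lower. Cdk6, a G1 kinase gene, rose 1.49-fold (2.81 against 1.89 FPKM, q = 0.0309 in the authors' deposited table) and Ccnd2, which encodes its partner cyclin D2, 1.21-fold (44.8 against 37.2 FPKM, q = 0.0362). Proliferation genes that p21 is known to lower held no called gene of 11 tested. A further 19 had no test result, none of them above 0.859 FPKM. Cenpa, a centromere histone gene, was at 26.4 and 28.9 FPKM, and the replication helicase genes Mcm6 and Mcm3 were at 4.69 against 4.02 and 4.01 against 3.26 FPKM. One of the 11 tested genes had an unadjusted p under 0.05, namely Mcm3.

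Bax, Bbc3 and Trp53inp1 are the members known for cell death. Bax, the pore-forming protein of the mitochondrial outer membrane, lies on chromosome 7 at 52717065 to 52722268 in mm9. It stood at 19.8 FPKM in DKO and 17.7 in Ctrl (log2 0.16, q = 0.690 in the authors' deposited table). Bbc3, which encodes the BH3-only protein PUMA, lies on chromosome 7 at 16894932 to 16903683 and was at 2.26 and 2.09 FPKM (log2 0.11, q = 0.912 in the authors' deposited table). Neither difference passed the test.

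Trp53inp1, a nuclear and autophagy protein gene, lies on chromosome 4 at 11083588 to 11101524 and stood at 5.43 FPKM in DKO and 4.94 in Ctrl (log2 0.14, q = 0.686 in the authors' deposited table). Its isoforms, from 1 start site, had ratios in opposite directions. That of 5392 bases was at 4.30 and 3.56 FPKM (q = 0.827 in the authors' deposited table), and that of 5430 bases at 1.13 and 1.38 FPKM (q = 0.954). Neither was called. For Bax, the window before its start held 1 pair of motifs with 1 mismatch and a gap of 1 base. It is printed with its GRCm38.p6 position (minus strand, 5′ to 3′ in the direction of the gene).
Bax chr7:45467090-45467110: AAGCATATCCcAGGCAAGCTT

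The partners of these death genes gave 1 call. Bcl2, which encodes the founding inhibitor of Bax-type proteins, rose 1.70-fold, at 4.01 against 2.36 FPKM (q = 0.00158 in the authors' deposited table). It was the 1 called gene of 14 tested in the BCL2 family list, whose median log2 was -0.01. Of all tested genes, 7.36% were called, so 1 call in this list is near that share. Of 16 caspase and apoptosome genes none was called, and 3 had an unadjusted p under 0.05. Diablo, whose product frees caspases from their inhibitors, was at 63.7 and 74.1 FPKM, Cycs, the cytochrome c gene, at 45.0 and 53.9 (q = 0.0572 in the authors' deposited table), and the caspase inhibitor gene Xiap at 16.1 and 15.9.

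Sesn1 was the member with a called transcript but no call as a gene. It encodes sestrin 1, a stress protein that restrains the growth kinase mTORC1 and supports antioxidant defence, and lies on chromosome 10 at 41530380 to 41628242 in mm9. As a gene it stood at 69.2 FPKM in DKO and 82.6 in Ctrl, a log2 ratio of -0.26 (q = 0.0678 in the authors' deposited table). Its downstream start, which gives the isoform of 2612 bases, fell from 67.6 FPKM in Ctrl to 51.9 in DKO, a log2 ratio of -0.38 (q = 0.0129 in the authors' deposited table as a start site group and 0.0183 as an isoform). Of all tested start site groups, 1.99% were called lower, and of all tested isoforms 1.12%.

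The upstream Sesn1 start stood at 17.3 FPKM in DKO and 15.0 in Ctrl (log2 0.21, q = 0.789 in the authors' deposited table). It gave 25.0% of the gene's FPKM in DKO and 18.1% in Ctrl, and whether these shares differ was not tested. Its isoforms had ratios in opposite directions, with that of 3182 bases at 16.5 and 11.8 FPKM (q = 0.770 in the authors' deposited table) and that of 2990 bases at 0.847 and 3.20 FPKM (q = 0.881). Over the members, 16 isoforms and 12 start site groups were listed. Of the 14 isoforms tested, 2 were called, that of Phlda3 higher and that of Sesn1 lower, where 3.02% of all tested isoforms were called and 1.90% were called higher. The called start site groups were those of Phlda3 and Eda2r, higher (2.95% of all tested groups), and the downstream Sesn1 group, lower (4.94% of all tested groups were called either way). The 12 coding sequences gave the same 3 calls, 2 higher and 1 lower. Of all tested coding sequences, 4.64% were called, 2.98% higher and 1.66% lower. Of 174 genes in the member and pathway lists that were tested and not called at gene level, 1, Sesn1, had a called isoform. The share of such genes over the whole gene table was not computed.

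The windows before the Sesn1 starts (GRCm38.p6, plus strand) are shown because the starts differ in call. The downstream window, chr10:41887189-41887438, precedes the start of the RefSeq transcript that the table names for the called isoform. The upstream window, chr10:41810324-41810573, precedes the first base of the RefSeq gene. It was matched to the upstream start group by position alone, since no RefSeq transcript named in the deposited tables was found to start there, so that match is not certain. The capitals mark the 1 exact p53 motif found, in the downstream window.
Sesn1 upstream start: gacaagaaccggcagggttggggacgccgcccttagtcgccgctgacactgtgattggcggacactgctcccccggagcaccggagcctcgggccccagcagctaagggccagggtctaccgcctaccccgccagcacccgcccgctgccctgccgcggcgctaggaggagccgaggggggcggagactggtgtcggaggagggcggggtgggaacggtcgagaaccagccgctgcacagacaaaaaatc
Sesn1 downstream start: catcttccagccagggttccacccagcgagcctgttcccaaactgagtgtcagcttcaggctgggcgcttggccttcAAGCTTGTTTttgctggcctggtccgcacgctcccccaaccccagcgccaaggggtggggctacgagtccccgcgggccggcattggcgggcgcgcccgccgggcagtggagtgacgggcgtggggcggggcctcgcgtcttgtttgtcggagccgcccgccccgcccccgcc

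The sestrin paralogs were not called, as none of the 22 tested mTORC1 and AMPK genes was. In that list 3 genes had an unadjusted p under 0.05, 15 had a log2 ratio below 0, and the median was -0.06. The most abundant were Akt1, named above, the AMPK subunit gene Prkag1 at 86.7 and 90.3 FPKM and the mTORC1 activator gene Rheb at 67.3 and 72.6 FPKM. Of 17 tested paralogs of the members as a whole, Phlda1 alone was called at a q of at most 0.05, where 7.36% of all tested genes were called.

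**Figure D3:**
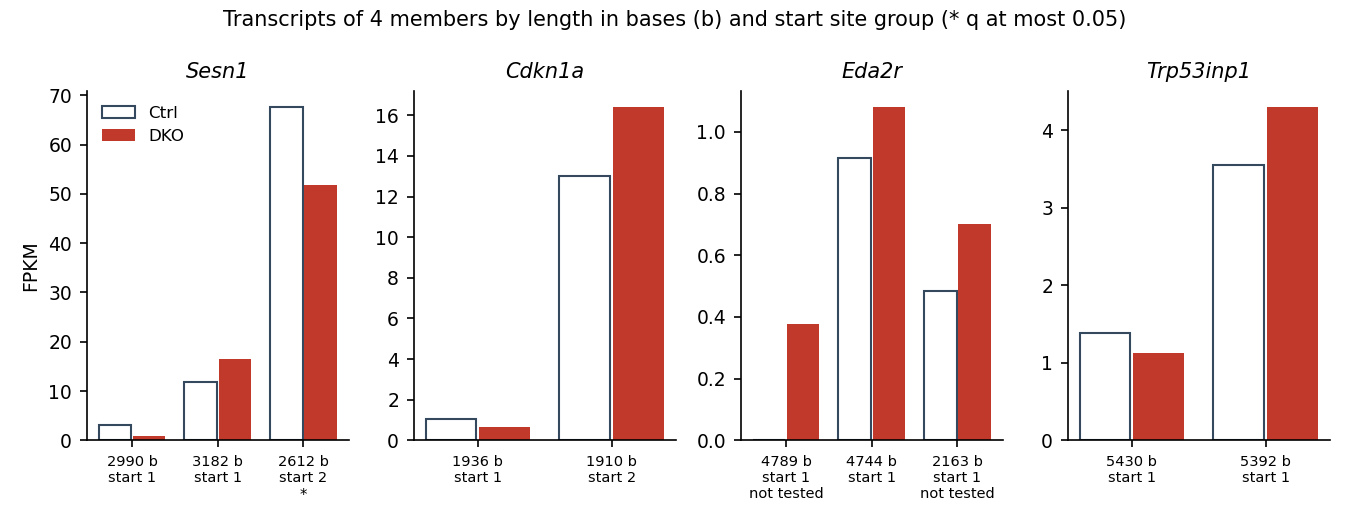
FPKM of each isoform of Sesn1, Cdkn1a, Eda2r and Trp53inp1, open bars for Ctrl and filled bars for DKO, 1 pooled value each and no error bars, with length in bases and start site group under each pair. The starred Sesn1 isoform of 2612 bases is lower in DKO (51.9 against 67.6 FPKM), while the other groups of bars carry no star.

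Mdm2, the ubiquitin ligase of p53, lies on chromosome 10 at 117125961 to 117147772 in mm9. It stood at 28.0 FPKM in DKO and 28.1 in Ctrl (q = 0.993 in the authors' deposited table), from 1 isoform of 3027 bases. Of all tested genes, 97.9% had a larger log2 ratio in either direction. Trp53 itself stood at 11.2 FPKM in DKO and 10.8 in Ctrl (q = 0.936 in the authors' deposited table), and Mdm4, the partner of Mdm2 in restraining p53, at 11.4 and 11.7 FPKM (q = 0.952). Of 20 tested genes for p53 and its regulators none was called, 1 had an unadjusted p under 0.05, and their log2 ratios ran from -0.13 to 0.29 with a median of 0.01. The most abundant were Brd7 (47.1 and 50.6 FPKM), the kinase gene Hipk2 (22.0 and 24.1) and the ubiquitin ligase gene Rchy1 (21.6 and 20.8). RNA levels do not report the amount or activity of the p53 protein.

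Zmat3 encodes a zinc finger protein that binds RNA. It lies on chromosome 3 at 32233716 to 32266360 in mm9, the interval also listed for a separate entry, 4930429B21Rik (0.327 and 0.287 FPKM, not tested), which was chosen after its values were seen. The strand setting of the counting is not known here, so reads of overlapping genes may not be separable. Zmat3 stood at 2.68 FPKM in DKO and 2.31 in Ctrl, a log2 ratio of 0.22 (q = 0.411 in the authors' deposited table).

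Across the promoter windows, 5 of the 12 listed for 8 members held an exact p53 motif, those of Bax, Ccng1, Mdm2, the upstream Cdkn1a start and the downstream Sesn1 start. Such a motif was present in 7.13% of all 32851 windows of 250 bases in the RefSeq table. A pair with at most 1 mismatch was in 3 member windows and in 0.898% of all windows. The windows of the members called at gene level, Phlda3 and Eda2r, held neither, and those of Bax, Ccng1 and the upstream Cdkn1a start, none of them called, held both. A match is a description of letters and not of binding, and p53 elements outside these windows were not searched. The absence of a match says only that these letters are not in the window. No window for Trp53inp1 or Zmat3 was used here.

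Beyond the members, 76 other known p53 targets were tested, of which 7 were higher and 4 lower. That is 14.5% called, where 7.36% of all tested genes were called in either direction, and the median log2 ratio was 0.02. This list was chosen with earlier results of these data known, so the contrast does not measure an excess of called p53 targets. Secreted and other targets held 4 higher genes of 28 tested. Among them were the stress cytokine gene Gdf15 (6.09-fold, 9.32 against 1.53 FPKM), Thbs1 (2.19-fold, 4.32 against 1.98), which encodes a matrix-associated thrombospondin, and the proteoglycan gene Vcan (1.38-fold, 4.41 against 3.19, q = 0.00407 in the authors' deposited table). Thbs1 and Vcan are also extracellular matrix genes, and fibroblast markers had a median log2 of 0.39. The part of the fibroblast and macrophage markers in these values was not tested.

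Cell cycle targets held 1 higher gene of 8 tested, the antiproliferative gene Btg2 (1.29-fold, 61.4 against 47.6 FPKM, q = 0.00290 in the authors' deposited table). Cell death targets held 1 of 12, Perp (1.32-fold, 146 against 111 FPKM), which encodes a membrane protein of desmosomes. Metabolic and antioxidant targets went both ways, with 1 higher and 3 lower of 14 tested. Ephx1, an epoxide hydrolase gene, was 1.47-fold higher at 42.5 against 29.0 FPKM. Ddit4, which encodes the mTORC1 inhibitor REDD1, was 1.66-fold lower at 20.3 against 33.7 FPKM, and the lipid and coenzyme A genes Lpin1 (36.8 against 45.3 FPKM, q = 0.0190 in the authors' deposited table) and Pank1 (23.2 against 28.7 FPKM, q = 0.0323) were lower. DNA repair targets held no higher gene and 1 lower gene of 14 tested, Ung, a uracil glycosylase gene, at 11.1 against 15.8 FPKM. Beside these counts, 4.30% of all tested genes were called higher and 3.06% lower. The authors' deposited table gives q = 0.00158 for each called gene of these lists whose q is not printed.

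**Figure D4:**
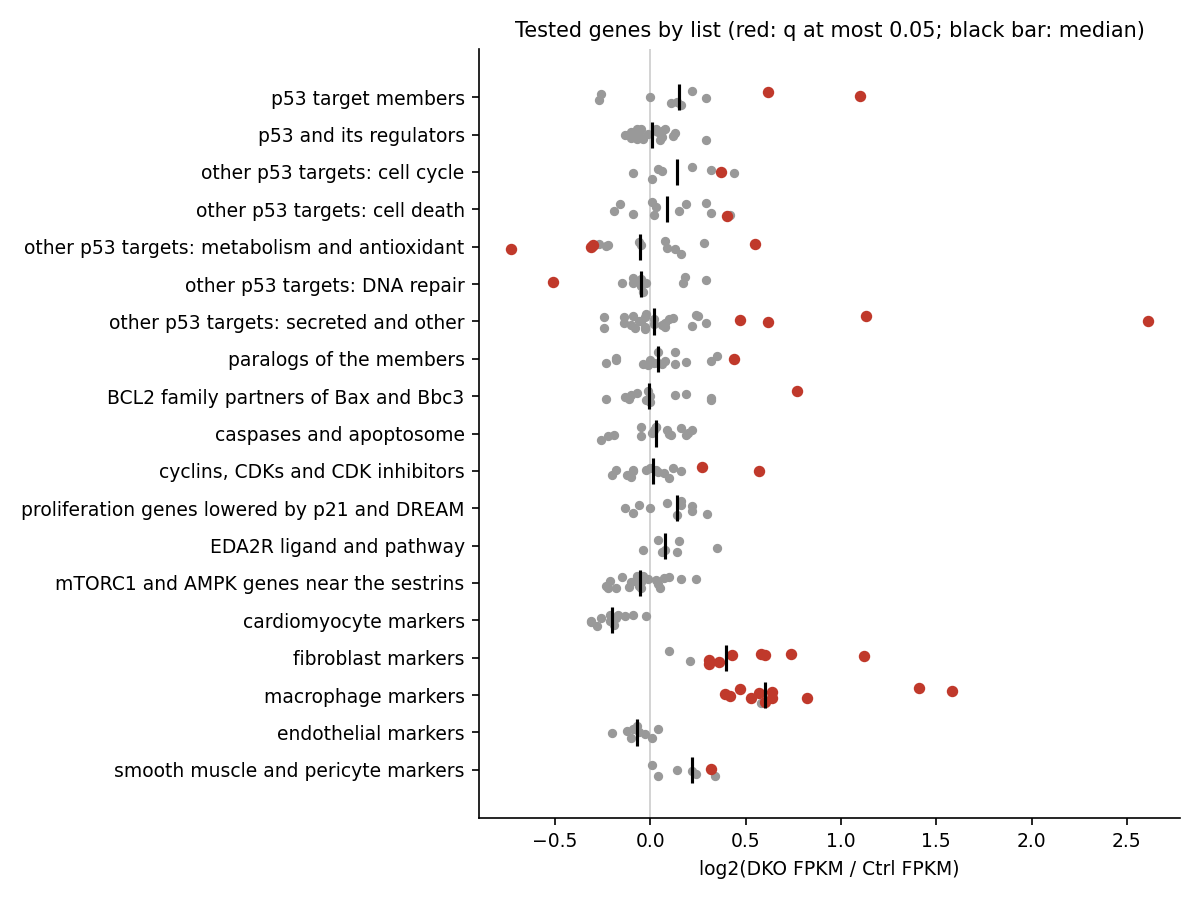
Log2 ratio of DKO over Ctrl FPKM for each tested gene of the members, of the pathway lists and of 5 cell type marker lists, 1 point per gene, red where q is at most 0.05, with a black bar at each list's median. The members have a median of 0.15, and those not called lie between -0.27 and 0.29. The p53 regulators have a median of 0.01 and lie between -0.13 and 0.29. Macrophage markers have a median of 0.60 and fibroblast markers of 0.39.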

How the data were processed

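RNA from 8 ventricle samples was compared as 4 DKO against 4 Ctrl animals. The submitters' processing notes name TopHat2 2.0.9 and the mm9 build, then Cufflinks 2.1.1 with Cuffdiff 2.1.1. For the gene annotation, strand setting and options, the sources used here give nothing. The deposited FPKM values, per the file headers, are 1 per genotype and feature, pooled by the authors over the animals of a genotype, so no error per animal, no interval and no leave-one-out value could be computed, and the read depth is unknown. The deposited p-values and q-values, per the file headers, are the authors' Cuffdiff comparison. Recomputing Benjamini-Hochberg values from the deposited p-values of the 12133 tested genes gave their q-values with a largest difference of 5.18e-07. The smallest p-value was 5e-05.

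Log2 ratios were recomputed as DKO over Ctrl FPKM without a pseudocount. A feature was called at a q of at most 0.05. The members and all gene lists were chosen with earlier results of these data known. The text names every member, Trp53, Mdm4, Sox5 and Sox6. Of each pathway list it names up to 4 called genes with the largest change. In pathway lists with no call it names the 3 tested genes with the highest mean FPKM. Of the cell type marker lists, only genes of the atrial list are named. One gene that the rule would name is not reported here. A gene or sequence outside this rule is marked where it appears. Loci are in mm9, counting from 1. Promoter sequences are RefSeq's for GRCm38.p6 and no position was converted between builds. Counting, the Benjamini-Hochberg step and the motif search were tested on simulated data. Alternatives covered the q and fold thresholds, an FPKM minimum, pseudocounts, a rescaling and the other tables. Python 3.11.15, pandas 2.3.3 and numpy 2.4.6 were used.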

Additional observations from a re-analysis of the deposited data

How the results depend on the processing

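Directions of the members called at gene level, Phlda3 and Eda2r, held under every alternative run. At a q under 0.01, 1 member (Phlda3) was called higher and 524 genes were called in all, against 893. In the isoform table, 1 member was called higher, 1 lower (Sesn1) and 552 genes in all, and the start site and coding sequence tables also gave 1 lower member. With an unadjusted p under 0.05, an alternative chosen after seeing the data, 2 members were lower and 2006 genes were called. These alternatives change the threshold or the features tested. A fold of at least 1.3, an FPKM of at least 1 in both genotypes, loci of 1 symbol and a rescaling to a median log2 of 0 kept 2 higher members, and all of these that were run for lower members kept 0. The median log2 of the members ran from 0.13 with log2(FPKM + 1) to 0.19 with the main isoform. The log2 ratio of Eda2r was 0.40 with log2(FPKM + 1) and 0.23 with its main isoform, and that of Trp53inp1 was 0.27 with its main isoform. No paired analysis was possible because the tables hold 1 pooled value per genotype, and no animal could be left out for the same reason. The depth behind each FPKM is unknown, so the precision of low values, such as single isoforms of Eda2r, cannot be given.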
